A study of Mus musculus with 8 samples.

Results

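The 10 genes described here encode the machinery that shows cytosolic peptides to CD8 T cells on MHC class I molecules: the class I heavy chains H2-K1 and H2-D1, their light chain B2m, the peptide loading genes Tap1, Tap2 and Tapbp, the immunoproteasome subunits Psmb8, Psmb9 and Psmb10, and the transcriptional activator Nlrc5. They were picked by symbol, with earlier results of these data known. All 10 were found among the 27179 genes of the table and passed the filter on low counts, as did 13364 genes in all. RNA came from mouse acute myeloid leukaemia cells that carry the MLL-AF9 fusion and GFP and are labelled wild type. The cells descended from the leukaemia of a single ill mouse, were grown in culture, and were injected into male recipients of 8 to 10 weeks that had not been conditioned, so each host kept its own blood cells. Recipients on either diet received 5+3 chemotherapy, which is cytarabine (100 mg/kg daily for 5 days) with doxorubicin (3 mg/kg on the first 3 days), and living GFP-positive cells were sorted from bone marrow when the response was greatest. The standard amino acid diet gave 5 libraries and the diet lacking leucine, isoleucine and valine, the branched-chain amino acids (BCAA), gave 3. The sample names of the latter read only BCAA, and the diet is taken from the title and design of the series. The labels call the libraries biological replicates without saying which mouse each came from, so the p-values measure the spread between these libraries, and animals without chemotherapy were not analysed here.

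In a class I molecule a heavy chain binds B2m and a short peptide, and without either partner it seldom reaches the cell surface. Proteasomes cut proteins into peptides, the Tap1 and Tap2 heterodimer pumps these into the endoplasmic reticulum, and tapasin (Tapbp) holds the empty class I molecule beside the pump while it is loaded. Interferon-gamma signalling, with Irf1 among its factors, NF-kB, and Nlrc5 together with the RFX, CREB and NF-Y factors raise transcription of most of these genes, and leukaemia cells with low class I are known to be poorer targets for T cells.

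The promoters are shown because members with shared elements can be set beside each other in the values that follow. RefSeq promoter windows of GRCm38.p6 (the assembly also named mm10) were found for 8 of the 10 genes, and the 250 bases before the annotated start were searched on both strands for an interferon regulatory factor element (GAANNGAAA), an interferon-gamma-activated site (GAS, TTCNNNGAA), the NF-Y box CCAAT, the CREB half-site TGACG and the NF-kB consensus. Capitals mark every match in the sequences, which run 5′ to 3′ on the strand of the gene. The B2m window (chr2:122147437-122147686, plus strand) held 1 NF-kB match, 1 TGACG and 1 CCAAT box on the opposite strand. Its lower-case gaaactgaaa, shortly before the NF-kB match, resembles the interferon regulatory factor element but does not match the pattern searched. The H2-K1 window (chr17:34000348-34000597, minus strand) held 2 overlapping NF-kB matches, 1 interferon regulatory factor match on the opposite strand, 1 TGACG and 1 CCAAT box.
B2m: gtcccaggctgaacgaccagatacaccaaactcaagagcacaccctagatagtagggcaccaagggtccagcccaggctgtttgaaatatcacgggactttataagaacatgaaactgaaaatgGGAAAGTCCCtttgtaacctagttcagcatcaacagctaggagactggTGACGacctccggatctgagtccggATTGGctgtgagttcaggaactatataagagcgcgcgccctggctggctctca
H2-K1: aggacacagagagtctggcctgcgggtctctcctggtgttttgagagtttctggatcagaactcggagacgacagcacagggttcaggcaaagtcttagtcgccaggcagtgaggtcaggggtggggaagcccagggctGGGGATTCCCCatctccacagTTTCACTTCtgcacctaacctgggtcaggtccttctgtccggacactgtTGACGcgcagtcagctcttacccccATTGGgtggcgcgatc

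H2-K1 and H2-D1 carry the NF-kB and interferon elements in the same order. Over the 30 bases that span both elements, 29 were identical, and the single difference, A18T, counted from the first base of the H2-K1 stretch, lies between the elements. The Tap1 stretch comes from the DNA between Tap1 and Psmb9, which are transcribed away from each other from starts with 225 bases between them, so that the 2 genes share 1 TGACG and 1 CCAAT box. Among the 8 windows, that of Psmb8 alone had a GAS match.
H2-K1, chr17:34000429-34000458, minus strand: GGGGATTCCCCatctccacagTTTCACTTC
H2-D1, chr17:35262923-35262952, plus strand: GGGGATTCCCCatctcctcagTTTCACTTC
Tap1, chr17:34187458-34187487, plus strand: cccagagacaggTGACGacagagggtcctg
Psmb8, chr17:34198087-34198116, plus strand: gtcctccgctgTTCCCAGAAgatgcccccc

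Of 27025 windows of this length, the interferon regulatory factor element was in 6.34%, GAS in 7.18%, CCAAT in 34.5%, TGACG in 17.9% and the NF-kB consensus in 3.75%. Tapbp had 2 CCAAT boxes and none of the other motifs, and Psmb10 had no match to any of the 5. These matches are letters in a window and not measured binding, and elements spelled otherwise than the patterns were not counted.

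Across diets, 9 of the 10 genes had a negative log2 fold change (BCAA-free minus standard diet), with a median of -0.45 where the median of all 13364 tested genes was 0.02. No member passed the threshold of an adjusted p under 0.05 in either direction in the quasi-likelihood test of edgeR. The same fit called 101 genes in all, of which 72 were lower (0.539% of those tested) and 29 higher (0.217%). At an unadjusted p under 0.05, 7 of the 10 members were lower, against 7.26% of all genes tested. DESeq2 on the same counts called 5 members lower, and limma-voom called 0. Standard-diet replicate 3 stood below the others of its diet for the whole set. It was the lowest of the 5 for 10 of 10 members, whereas it was the lowest for 17.2% of all genes tested, and without it edgeR called 5 members lower. Leaving out this library raises the standard-diet mean of every member by construction. Fits without it, here and below, are therefore no independent support for a diet difference.

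**Figure D1:**
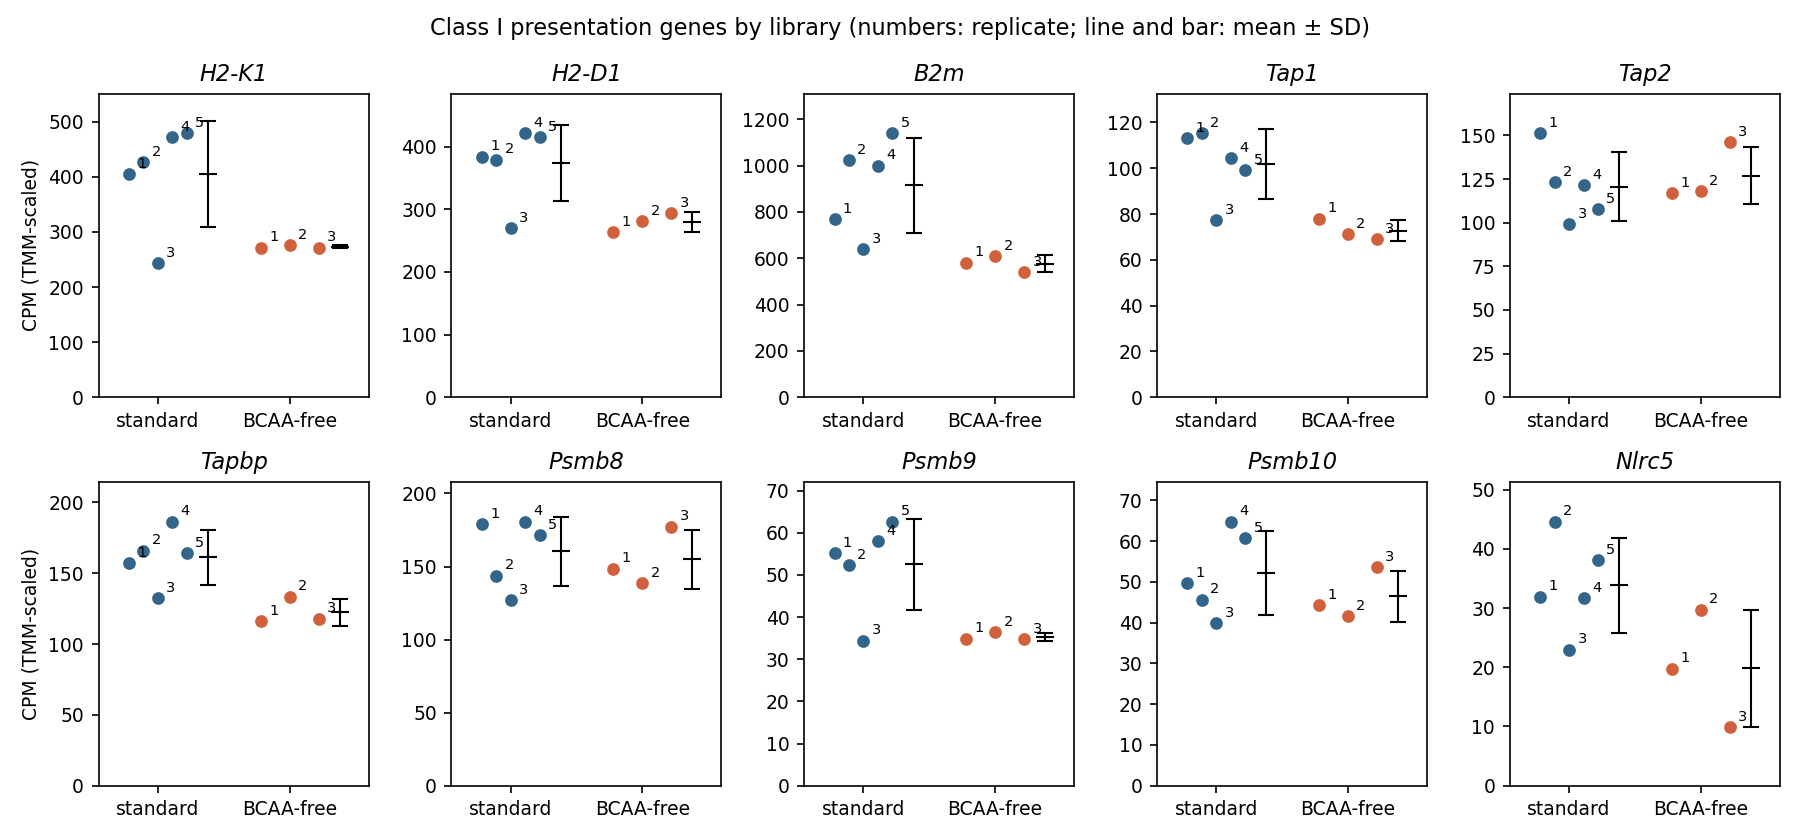
Normalised expression of the 10 genes in counts per 1000000 (CPM, scaled by TMM) for each library; blue points are the 5 standard-diet and orange points the 3 BCAA-free libraries, numbers are replicates, and the line and bar give the mean ± SD of a group. Standard-diet replicate 3 is the lowest blue point in all 10 panels, and B2m is the 1 gene whose groups do not overlap.

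The heavy chain gene H2-K1 (chr17:33996012-34000619, minus strand) had 405, 426, 244, 472 and 479 CPM in standard-diet replicates 1 to 5 and 272, 276 and 272 CPM in the BCAA-free libraries. The BCAA-free libraries lay close together and below 4 of the 5 standard-diet libraries, but above replicate 3. The log2 fold change was -0.57 ± 0.17 (SE; 95% interval -0.94 to -0.20; adjusted p = 0.163 in edgeR). Without standard-diet replicate 3 it was -0.71 ± 0.11 (adjusted p = 0.00616 in edgeR).

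H2-D1 (chr17:35263094-35267497), the other classical heavy chain gene, had 384, 379, 270.3, 422 and 416 CPM on the standard diet and 264, 281 and 294 CPM on the BCAA-free diet. The groups overlapped again only through standard-diet replicate 3, which lay between the first and second BCAA-free libraries. Its log2 fold change was -0.42 ± 0.13 (SE; 95% interval -0.69 to -0.14; adjusted p = 0.162 in edgeR), and -0.52 ± 0.11 without that library (adjusted p = 0.0330). Single reads of 38 bases cannot be assigned between close class I paralogs everywhere: 16.3% of the 38-base words of the longest H2-K1 transcript and 21.8% of those of H2-D1 also occur in other genes, most often in each other and in H2-Q genes. The reads came in pairs, and how reads with several matches were counted was not given. The counts of both genes are therefore uncertain, but these shares do not measure by how much.

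B2m (chr2:122147687-122153082), the light chain of every class I molecule, had 770, 1023, 641, 999.9 and 1140.3 CPM on the standard diet and 581, 609 and 539 CPM on the BCAA-free diet. All 3 BCAA-free libraries were below all 5 standard-diet libraries. It was the only member of the 10 with that separation, which 4.68% of all tested genes showed in the same direction. The log2 fold change was -0.67 ± 0.16 (SE; 95% interval -0.9996 to -0.33; adjusted p = 0.0639 in edgeR) and thus missed the threshold in this fit. It was past the threshold without standard-diet replicate 3 (-0.77 ± 0.13, adjusted p = 0.0102 in edgeR), in DESeq2 (adjusted p = 0.00185) and in edgeR without the filter on low counts (adjusted p = 0.0142). None of the 38-base words of B2m occurs in another gene, although Patl2 overlaps it on the opposite strand and no source used here says whether the counting used strand.

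Of the peptide pump, Tap1 (chr17:34187556-34197225) had 113, 115, 77.3, 104 and 99.2 CPM on the standard diet and 78.0, 71.3 and 69.0 CPM on the BCAA-free diet. Only the first BCAA-free library reached above the lowest standard-diet library, replicate 3. Its log2 fold change was -0.49 ± 0.13 (SE; 95% interval -0.76 to -0.21; adjusted p = 0.0927 in edgeR) and -0.57 ± 0.12 without that library (adjusted p = 0.0302).

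Tap2 (chr17:34204479-34216321), the partner subunit of the same transporter, had 151, 123, 99.0, 121 and 108 CPM on the standard diet and 117, 118 and 146 CPM on the BCAA-free diet. The BCAA-free libraries lay inside the standard-diet range. Tap2 shares 14.3% of its 38-base words with other genes, mostly with Gm15821. The log2 fold change was 0.08 ± 0.13 (SE; 95% interval -0.20 to 0.35; adjusted p = 0.852 in edgeR), the only positive value among the 10, which turned to -0.04 without BCAA-free replicate 3.

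Tapbp (chr17:33919478-33929290), the gene of tapasin, had 157, 166, 133, 186 and 164 CPM on the standard diet and 116, 134 and 118 CPM on the BCAA-free diet. The second BCAA-free library lay just above standard-diet replicate 3, and all other BCAA-free values were below every standard-diet value. The log2 fold change was -0.40 ± 0.12 (SE; adjusted p = 0.130 in edgeR) and stayed short of the threshold without replicate 3 (adjusted p = 0.0729). Tapbp shares 22.6% of its 38-base words with other genes, mostly with the overlapping long noncoding gene Gm19412.

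**Figure D2:**
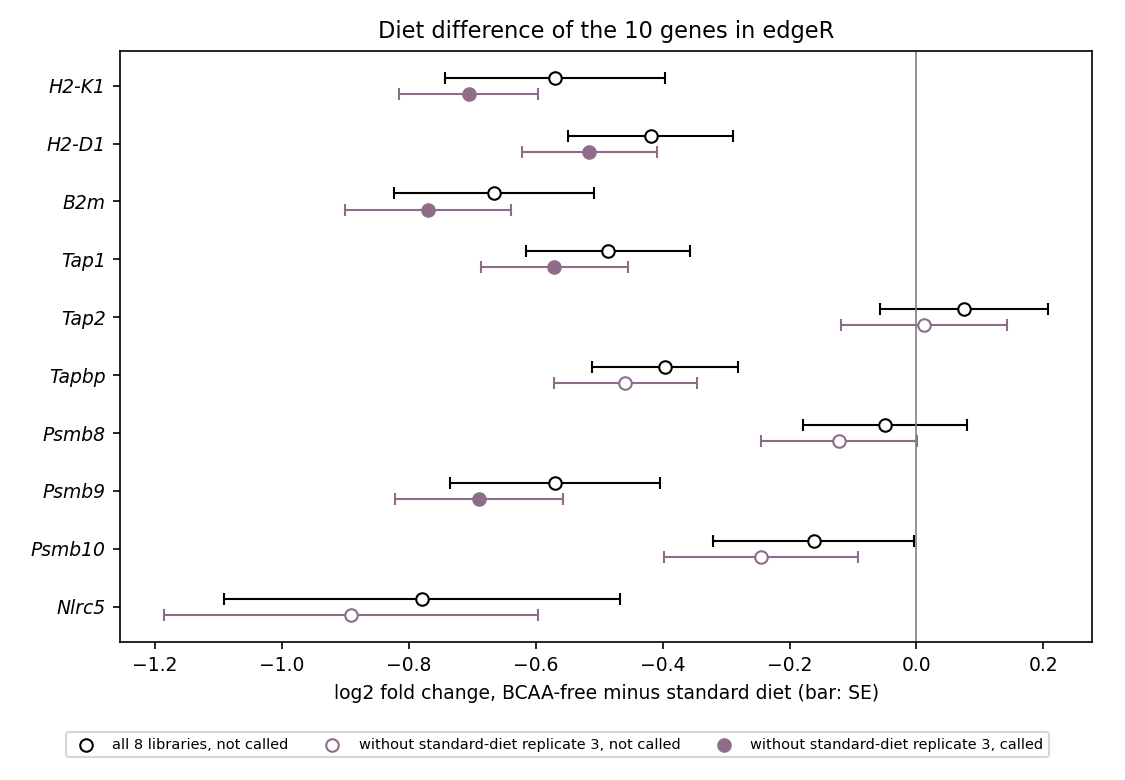
Log2 fold change (BCAA-free minus standard diet) of each gene in edgeR; bars are 1 standard error, black symbols use all 8 libraries and purple symbols leave out standard-diet replicate 3, with filled symbols for an adjusted p under 0.05. H2-K1, H2-D1, B2m, Tap1 and Psmb9 are filled without that library, which was the lowest of its diet for every gene shown. Tap2, Psmb8 and Psmb10 lie nearest to 0 in both fits.

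The immunoproteasome subunits replace the constitutive catalytic subunits and change which peptides are cut. Psmb9 (LMP2; chr17:34182030-34187330), which takes the place of Psmb6, had 55.2, 52.3, 34.4, 58.0 and 62.6 CPM on the standard diet and 34.9, 36.4 and 34.8 CPM on the BCAA-free diet. As for H2-K1, the BCAA-free libraries were nearly equal and only standard-diet replicate 3 was as low. The log2 fold change was -0.57 ± 0.17 (SE; 95% interval -0.92 to -0.22; adjusted p = 0.128 in edgeR) and -0.69 ± 0.13 without that library (adjusted p = 0.0225). Psmb9 shares 13.3% of its 38-base words with its divergent neighbour Tap1, so a part of the reads of either gene may belong to the other.

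Psmb8 (LMP7; chr17:34198195-34201454), which replaces Psmb5, had 179, 144, 127, 181 and 171 CPM on the standard diet and 148, 139 and 177 CPM on the BCAA-free diet. The groups overlapped throughout, with a log2 fold change of -0.05 ± 0.13 (SE; 95% interval -0.32 to 0.22; adjusted p = 0.909 in edgeR). Psmb10 (MECL-1; chr8:105935728-105938392), which replaces Psmb7 and is the immunoproteasome subunit outside the MHC locus, had 49.7, 45.7, 39.9, 64.8 and 60.7 CPM on the standard diet and 44.3, 41.6 and 53.6 CPM on the BCAA-free diet. Its groups overlapped as well, with a log2 fold change of -0.16 ± 0.16 (SE; 95% interval -0.50 to 0.17; adjusted p = 0.704 in edgeR).

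Nlrc5 (chr8:94434335-94527272), the NOD-like receptor family member that activates class I promoters, had 31.9, 44.6, 22.98, 31.7 and 38.0 CPM on the standard diet and 19.8, 29.7 and 9.89 CPM on the BCAA-free diet. Its BCAA-free libraries spread over a 3.01-fold range, the widest of the 10 genes in that group, and the second of them lay inside the standard-diet range. The log2 fold change was -0.78 ± 0.31 (SE; 95% interval -1.47 to -0.09; adjusted p = 0.314 in edgeR), with the largest standard error of the 10. It moved to -0.45 when BCAA-free replicate 3 was left out and to -1.21 when replicate 2 of that diet was, so its place among the 10 rests on those libraries.

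Standard-diet replicate 3 also differed from its group in markers of maturation. Its summed level of 7 mature neutrophil markers was 1923 CPM, against 266 to 956 CPM in the other standard-diet libraries, and its Kit level, a receptor of immature progenitors, was 58.4 CPM against 140.4 to 225 CPM. The BCAA-free libraries were low in Kit too, at 116, 99.1 and 127 CPM. These values lay above standard-diet replicate 3 but below every other standard-diet library. Among the BCAA-free libraries, replicate 2 had the highest neutrophil sum, 2429 CPM against 601 and 958 CPM. Leaving out both libraries, an alternative added after the data were seen, edgeR called H2-K1, B2m and Nlrc5 lower, so 3 of 10 members, with 0.305% of all genes tested called lower. Without standard-diet replicate 3 alone, 5 of 10 were called, with 0.552% of all genes called lower. Leaving out any other single library called 0 members. DESeq2 called H2-K1, B2m, Tap1, Tapbp and Psmb9 lower, with 1.9% of all genes called lower, and edgeR without a filter on low counts called B2m, Tap1 and Psmb9, with 0.858% of all genes called lower. The part of neutrophil maturation in the level of the 10 genes was not tested.

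**Figure D3:**
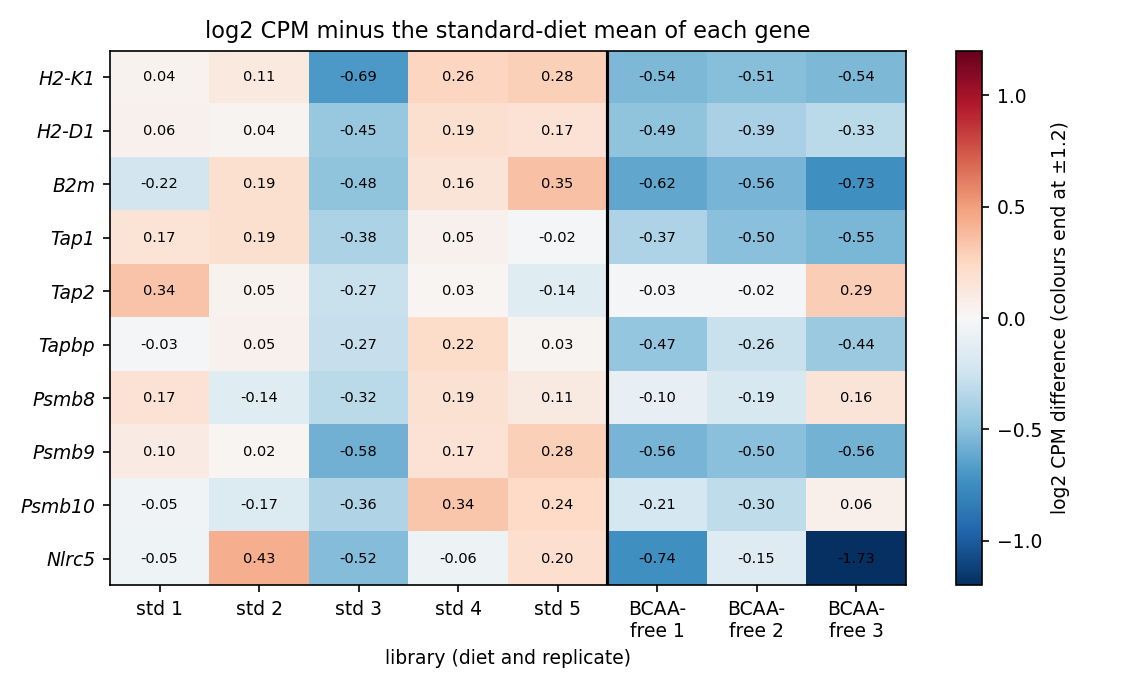
Log2 CPM of each gene in each library minus the gene's standard-diet mean; columns are libraries, rows are genes, and the vertical line separates the diets. Standard-diet replicate 3 is below 0 for all 10 genes (H2-K1 -0.69), and in the BCAA-free columns the rows of Tap2, Psmb8 and Psmb10 are near 0 or mixed in sign.

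The sorted cells carried the leukaemia markers: all 8 of the leukaemia and myeloid markers passed the filter, among them Hoxa9 (175 ± 15.3 CPM, SD, n = 5, on the standard diet and 165 ± 24.6 CPM, n = 3, on the BCAA-free diet) and Meis1 (128 ± 11.2 and 120.1 ± 7.55 CPM), both MLL-AF9 targets. The 8 summed to 8895 to 11548 CPM on the standard diet and 7333 to 8632 CPM on the BCAA-free diet, most of it Mpo, a granule enzyme gene with a log2 fold change of -0.50 ± 0.12 (adjusted p = 0.0605 in edgeR). Markers of host cell types were also measured. The 8 B cell markers summed to 9.77 to 20.1 CPM on the standard diet and 29.9 to 139.9 CPM on the BCAA-free diet, and among those tested Cd79a and Cd79b rose. Leaving out 1 library at a time kept the call of Cd79b in 7 of 8 fits and that of Cd79a in 3 of 8, and without BCAA-free replicate 2 neither was called. The 10 T and NK cell markers summed to 9.61 to 19.0 CPM and 13.1 to 49.98 CPM, the 7 dendritic cell markers to 7.17 to 16.6 CPM and 16.8 to 27.6 CPM, 7 of the erythroid markers to 3.51 to 11.97 CPM and 4.96 to 45.1 CPM, and the 8 stromal markers to 25.2 to 43.6 CPM and 42.2 to 62.8 CPM, where Cxcl12 rose (called in 3 of 8 fits with 1 library left out). The 8 macrophage markers summed to 284 to 391 CPM on the standard diet and 225 to 291 CPM on the BCAA-free diet, most of it Vcam1 (221 ± 11.5 and 158 ± 48.7 CPM) and Adgre1 (115 ± 35.5 and 73.99 ± 18.3 CPM). The other 6 macrophage markers had positive log2 fold changes, for a median of 0.94 over the 8. Vcam1 was lower in the BCAA-free libraries without overlap, as were 4.68% of all genes tested. C1qa, C1qc and Cd5l, all under 10 CPM, were higher without overlap. The share of all genes higher in that way is not reported here. No macrophage marker was called in edgeR (5 higher and 2 lower at an unadjusted p under 0.05). None of these markers was at 0 in all libraries, and the part of host cells in the class I levels was not tested. In sorted bulk cells, fewer cells of a type and less RNA per cell cannot be told apart.

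Per length, B2m was the most abundant transcript of the 10, at 1064 ± 237 CPM per kilobase of exon (SD, n = 5, standard diet). H2-K1 followed with 245 ± 57.7 and H2-D1 with 178 ± 29.0 CPM per kilobase, and the ranges of these heavy chains overlapped each other but not that of B2m. Psmb8 came next at 98.5 ± 14.6 CPM per kilobase, with Tapbp at 55.6 ± 6.68, and neither range touched that of its neighbour above. Psmb10 (39.8), Psmb9 (38.8), Tap2 (35.0) and Tap1 (34.5 CPM per kilobase) overlapped one another in range, and the ranges of Psmb10 and Psmb9 overlapped that of Tapbp. Nlrc5 was the scarcest, at 4.17 ± 0.99 CPM per kilobase. On the BCAA-free diet Tap1 was at 24.6 ± 1.58 and Tap2 at 36.9 ± 4.798 CPM per kilobase (SD, n = 3).

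Ratios of counts within a library do not depend on how libraries are scaled. The ratio of Tap1 to Tap2 was 0.748, 0.936, 0.781, 0.859 and 0.918 in the standard-diet libraries and 0.666, 0.605 and 0.472 in the BCAA-free libraries. The ratio of Psmb9 to Psmb8 was 0.309, 0.364, 0.271, 0.321 and 0.366 against 0.235, 0.262 and 0.196. For both ratios the BCAA-free values all lay under the lowest standard-diet value, replicate 3 included. Both comparisons were added after the values were seen. The mean log2 ratio differed by -0.56 for Tap1 to Tap2 and by -0.50 for Psmb9 to Psmb8, each with p = 0.0357 in a two-sided exact permutation test over 56 assignments, the smallest p that design can give, and 0.0893 after adjustment over 5 ratios. Thus neither passed the adjusted threshold. Because the pairs were formed after the values were seen, their separation and p-values are a description and not a test of the diet. The adjustment does not cover other pairs that could have been formed.

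The exchange of constitutive for immunoproteasome subunits was compared in the same way, over 3 ratios. With 0.0357 as the smallest p of the permutation test, an adjusted p under 0.05 needed all 3 ratios at that value. Psmb9 to Psmb6 was 0.802, 1.10, 0.498, 0.922 and 1.06 on the standard diet and 0.498, 0.599 and 0.429 on the BCAA-free diet, a difference of -0.74 on the log2 scale (p = 0.107 in the exact permutation test, adjusted p = 0.25). Only standard-diet replicate 3 was as low as the BCAA-free libraries. Psmb8 to Psmb5 ranged from 2.93 to 4.48 and from 3.20 to 3.74 (difference -0.21, exact permutation p = 0.214), and Psmb10 to Psmb7 from 0.288 to 0.535 and from 0.310 to 0.378 (difference -0.29, exact permutation p = 0.25), both also with an adjusted p of 0.25. The constitutive subunits themselves had log2 fold changes of 0.15 ± 0.14 (Psmb5), 0.20 ± 0.14 (Psmb6) and 0.12 ± 0.12 (Psmb7), none of them called in edgeR.

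**Figure D4:**
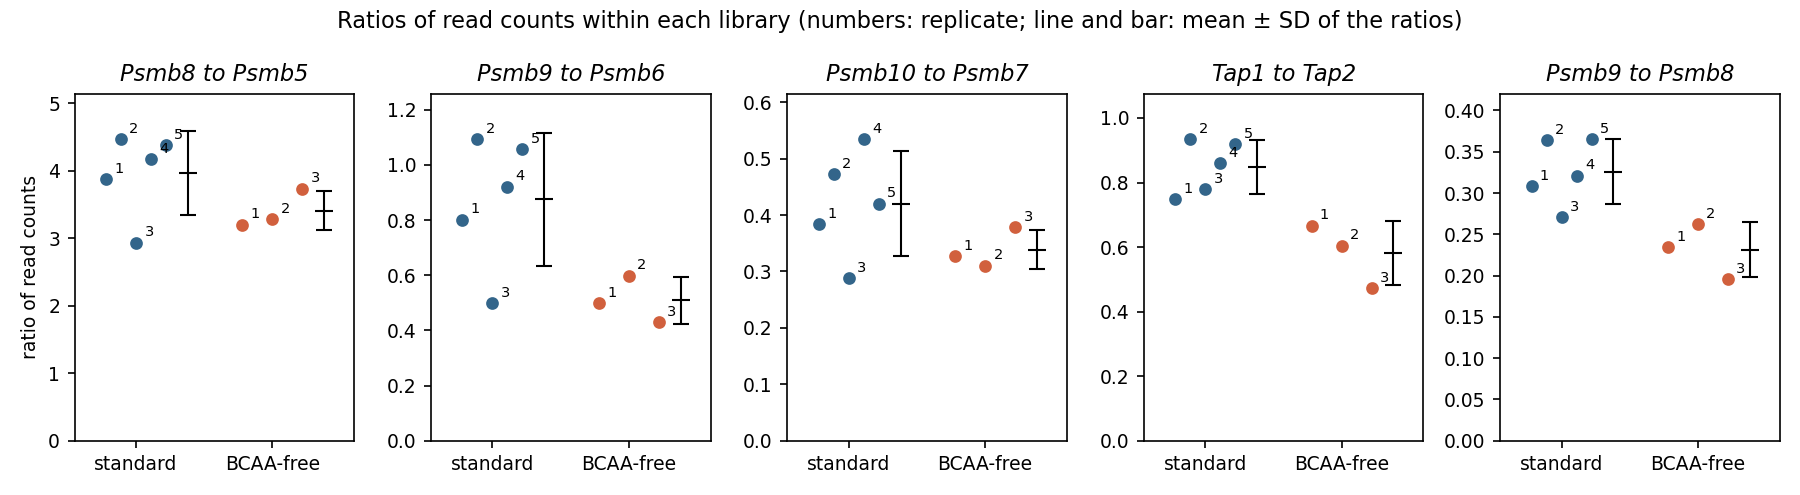
Ratio of read counts of 2 genes within each library; blue points are standard-diet and orange points BCAA-free libraries, numbers are replicates, and the line and bar give the mean ± SD of the ratios. The groups are separate for Tap1 to Tap2 and Psmb9 to Psmb8, which were formed after the values were seen. They overlap for the 3 ratios of an immunoproteasome subunit to its constitutive counterpart.

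Among the regulators of class I genes, the interferon-induced factor Irf1, which acts on class I promoters, had 80.8, 91.0, 76.1, 91.9 and 87.4 CPM on the standard diet and 61.4, 75.6 and 79.4 CPM on the BCAA-free diet. Only the third BCAA-free library lay inside the standard-diet range. Irf1 had a log2 fold change of -0.24 ± 0.12 (adjusted p = 0.382 in edgeR), and Rfx5, the DNA-binding subunit of the RFX complex, of -0.17 ± 0.21 (adjusted p = 0.775). None of 12 interferon receptor and signalling genes was called, with a median log2 fold change of 0.01.

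The other class I and class I-like chains gave no call: 0 of the 14 tested of 21 listed were called in edgeR (3 lower and 1 higher at an unadjusted p under 0.05), 8 were negative and 6 positive, and the median was -0.06. The nonclassical chains had log2 fold changes of -0.26 ± 0.16 for H2-T23 (Qa-1, a ligand of NK receptors), -0.07 ± 0.44 for H2-Q7 (Qa-2) and -0.05 ± 0.29 for H2-M3, which presents formylated peptides. Chosen after its values were seen, H2-T24 had 52.2 to 57.7 CPM on the standard diet and 35.95 to 44.3 CPM on the BCAA-free diet. Its groups did not overlap, a separation that 4.68% of all tested genes showed in the same direction. Its log2 fold change was -0.46 ± 0.12 (adjusted p = 0.0855 in edgeR). Fcgrt went the other way without overlap, from 0.28 to 2.00 CPM on the standard diet to 2.96 to 6.77 CPM on the BCAA-free diet. The log2 fold change of Fcgrt was 1.77 ± 0.49 (adjusted p = 0.113 in edgeR). In H2-T24 standard-diet replicate 3 was at 54.9 CPM, within the range of its group. That library was the lowest of its diet for H2-Q1, H2-Q4, H2-T10, H2-T22, H2-T23, H2-M3 and Cd1d1. It was not the lowest for H2-Q6, H2-Q7, H2-Q10, Mr1, Fcgrt and Hfe. H2-Q4 (-0.96 ± 0.41, adjusted p = 0.360 in edgeR) and H2-T10 (-0.69 ± 0.26, adjusted p = 0.268) had more negative log2 fold changes than H2-T24, with overlapping groups.

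Folding, loading and trimming genes of the endoplasmic reticulum gave 0 calls among 14 tested, with 10 negative values and a median of -0.08. Erap1, the aminopeptidase that trims peptides to class I length, was at -0.42 ± 0.13 (adjusted p = 0.161 in edgeR), the most negative of that list. The chaperone Calr and the disulfide isomerase Pdia3 of the loading complex were at -0.21 ± 0.12 and -0.18 ± 0.11, and the tapasin relative Tapbpl at -0.07 ± 0.12. Cytosolic peptide supply gave 0 calls among 13 tested of 16 listed, with a median of 0.06. In that list the subunits of the interferon-inducible proteasome activator PA28, Psme1 and Psme2, were at -0.02 ± 0.12 and 0.02 ± 0.15, and the sign of Psme1 turned with 2 of the other scalings.

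**Figure D5:**
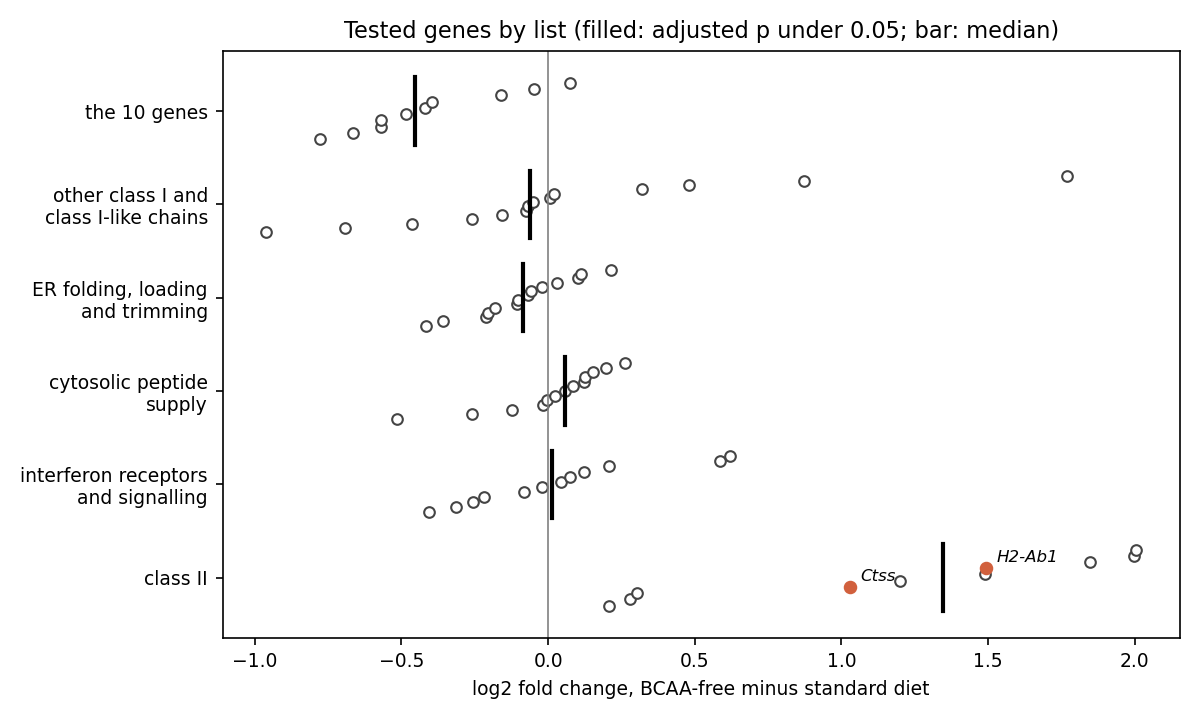
Log2 fold change (BCAA-free minus standard diet) of each tested gene, by list; filled points have an adjusted p under 0.05 in edgeR and are named, and the bar is the median of the list. The 10 class I presentation genes have a median of -0.45 with no filled point, and the class II list has a median of 1.35.

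MHC class II genes, which present peptides from the endosome to CD4 T cells, had the opposite sign: 10 of 10 log2 fold changes were positive, and H2-Ab1 (1.49 ± 0.33, adjusted p = 0.0475 in edgeR) and the invariant chain protease Ctss (1.03 ± 0.22, adjusted p = 0.0450) rose. Both calls were close to the threshold and were lost in 7 of the 8 fits that left out 1 library: H2-Ab1 stayed called only without BCAA-free replicate 3 and was at 0.87 (adjusted p = 0.306) without BCAA-free replicate 2, and Ctss stayed called only without standard-diet replicate 5. They were also lost with DESeq2 size factors (adjusted p = 0.0523 and 0.0508) and in the non-robust fit (0.0601 and 0.0571). The summed B cell markers were higher in the same libraries, as given above, and Ciita, the class II activator related to Nlrc5, was at 1.40 ± 0.65 (adjusted p = 0.366 in edgeR). Most of that value came with BCAA-free replicate 2, where Ciita was at 8.02 CPM against 2.15 and 1.145 CPM, and without it the log2 fold change was 0.19.

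Outside the lists, 5 of the 8930 genes that averaged 10 CPM or more had log2 levels most like the mean profile of the 10 members over the 8 libraries. They were the membrane protein gene Itm2b (Pearson r = 0.98), the glycosaminoglycan linker enzyme B3galt6 (0.96), the GPI-anchored Ly6e (0.92), the endosomal tethering subunit Vps8 (0.91) and the lysosomal sulfatase Arsb (0.90). These correlations describe 8 libraries that share the diet groups and the low standard-diet replicate 3. None of the 5 was called between diets in edgeR, and their log2 fold changes ran from -0.49 for B3galt6 to -0.16 for Itm2b.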

How the data were processed

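Polyadenylated RNA was sequenced as read pairs of 38 bp, per the labels' protocols. The authors deposited 1 table of raw counts per Entrez gene, without normalization. The submitters' processing notes name mm10, featureCounts and Cell Ranger without versions or roles. For the aligner, the strand setting and reads with several matches, the methods were not given in the sources used here. The RefSeq table of GRCm38.p6 gave symbols for 25275 of 27179 identifiers. The other 1904 held 1.71% to 4.43% of a library's counts and stayed in the tests. Library totals were 14851240 to 38966911 counts, and members had at least 295 counts in every library. Pairs of libraries within a group differed beyond counting noise (chi-square over its degrees of freedom, 19.5 to 61.9).

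The main test was edgeR 4.0.16 (quasi-likelihood, robust, TMM factors, default filter with minimum count 10 and minimum total 15, diet as the only term, R 4.3.3), adjusted by Benjamini-Hochberg over 13364 genes with a threshold of 0.05. Counts per 1000000 (CPM) used the total over tested genes times the TMM factor, and marker sums used the unscaled library totals. Between replicates, the common biological variation (edgeR) was 23.0%. Standard errors were taken as log2 fold change over the square root of F. Alternatives were other scalings, no filter, DESeq2 1.42.0, limma-voom (limma 3.58.1), a non-robust fit, a replicate block and libraries left out. The procedure was tested on simulated data. Ratios used scipy 1.17.1. Words of 38 bases came from GENCODE transcripts, exon lengths from the same annotation, promoters from RefSeq. Tap2 and Nlrc5 promoters were not analysed here, nor was Hbb-bt, and some genes that the naming rule picks are not reported here.

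The text names all 10 members, called genes of each list (up to 3 per direction), 16 fixed pathway genes and the 5 genes most like the members. The members and lists were chosen with earlier results of these data known.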

Additional observations from a re-analysis of the deposited data

Results flagged for a closer look

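H2-D1 in standard-diet replicate 3, at 270.3 CPM, lay far from the other 4 standard-diet libraries, the nearest of which was at 379 CPM. The gap made up 0.721 of the range of the group. It was the 1 outlying value among 34 measures examined, and chance alone gives about 1 in 20.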

How the results depend on the processing

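The members' negative median held in every fit (-0.54 to -0.42 with 1 library left out), and 7 to 10 of the 10 members were negative in each. Beside the 101 genes and 0 members called in the main analysis, there were 237 genes and 3 members lower with no filter, 376 and 5 in DESeq2, 64 and 0 in limma-voom, and 47 and 3 without standard-diet replicate 3 and BCAA-free replicate 2 together. With 1 library left out, 32 to 134 genes and 0 to 5 members were called. In the lists, where 1 gene was called lower and 2 higher, DESeq2 size factors gave 0 and 0, upper quartile factors and library totals 0 lower, no filter 4 higher, DESeq2 2 lower and 5 higher, limma-voom and the non-robust fit 0 and 1, omission of standard-diet replicate 1 with BCAA-free replicate 3 0 lower, omission of the other pair 2 and 0, and omission of 1 library 0 to 1 lower and 0 to 2 higher. The cause of these differences was not tested. Replicate numbers showed no positive pairing (correlations of same-numbered deviations -0.08, -0.05 and -0.30), but 3 pairs cannot settle whether libraries shared a batch. With the number as a replicate block in replicates 1 to 3, 0 genes, 0 members and 0 list genes in either direction were called (19 genes without the block), and log2 fold changes turned positive for Psmb8 (0.054), Psmb10 (0.043), Psme1 (0.12) and H2-Q7 (0.051).

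Other values near 0 changed sign too. Psme1 was at 0.017 with upper quartile factors and 0.027 with library totals, scalings that moved the median of all genes to 0.05 and 0.06. H2-Q7 was at 0.019 in limma-voom, H2-Q7 and H2-M3 at 0.15 and 0.16 without standard-diet replicate 1 and BCAA-free replicate 3, and Psme2 at -0.0022 without standard-diet replicate 3 and BCAA-free replicate 2. Over omissions of 1 library the ranges were -0.16 to 0.015 for Psmb8, -0.042 to 0.17 for Tap2, -0.084 to 0.039 for Psme1, -0.056 to 0.13 for Psme2, -0.42 to 0.24 for H2-Q7, -0.23 to 0.16 for H2-M3 and -0.34 to 0.034 for Rfx5. All 5 ratios stayed negative with 1 library left out.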
